A study of Mus musculus with 28 samples.

Results

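The 9 nonclassical major histocompatibility complex (MHC) class I genes H2-M2, H2-M3, H2-Q4, H2-Q6, H2-Q7, H2-Q10, H2-T22, H2-T23 and H2-T24 were followed across 28 AB1-HA mesothelioma tumors. They were taken by gene symbol from the 55341 rows of both count matrices, and the set was chosen by a readout of these same samples, the log2 CPM (read counts scaled to library size) across the 6 treatment groups. Levels and group differences of the 9 genes are therefore a description and carry no test. All 9 passed the filter on low counts in both matrices.

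AB1-HA is a mesothelioma cell line of BALB/c origin that carries influenza hemagglutinin, and it was grown under the skin of female BALB/c.AusBP mice that were 8 to 10 weeks old. Treatment began when tumors covered 20 to 25 mm2. Control mice received PBS (n = 4). Immune checkpoint blockade (ICB, n = 5) combined 100 µg of anti-CTLA-4 with 100 µg of anti-PD-L1, and 2 further anti-PD-L1 doses followed. 5-FU was given at 75 mg/kg (n = 5) and cisplatin at 6 mg/kg (n = 4), and both drugs were also combined with ICB as 5-FU+ICB (n = 5) and Cisplatin+ICB (n = 5). Whole tumors were taken on day 7, each from a different mouse, and all descend from 1 implanted line. Since bulk RNA was measured, fewer cells of a type and less RNA per cell cannot be told apart.

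Class I molecules pair a heavy chain with the light chain beta-2-microglobulin. The classical chains H2-K and H2-D show peptides from inside the cell to CD8+ T cells. Nonclassical chains are less variable between individuals and have narrower tasks. H2-T23 encodes Qa-1, which displays a leader peptide of classical class I chains to the CD94/NKG2 receptors of natural killer (NK) cells and activated T cells. H2-M3 presents formylated peptides of bacterial or mitochondrial origin. H2-T22 is a ligand of a subset of gamma delta T cells. H2-Q7 and H2-Q6 belong to the Qa-2 family, and H2-Q10 is known as a secreted protein of the liver. Interferons raise many class I genes, with IRF1 and NLRC5 among the factors involved.

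All 9 genes are protein coding and lie on mouse chromosome 17 in the GENCODE M21 annotation of GRCm38. The Q genes run from H2-Q4 (chr17:35379617-35385290, plus strand) over H2-Q6 (chr17:35424850-35430055, plus strand) and H2-Q7 (chr17:35439155-35443773, plus strand) to H2-Q10 (chr17:35470089-35474563, plus strand). Next come H2-T24 (chr17:36005695-36020560, minus strand), H2-T23 (chr17:36029773-36032855, minus strand) and H2-T22 (chr17:36037128-36042747, minus strand), and farther along the chromosome H2-M3 (chr17:37270220-37274484, plus strand) and H2-M2 (chr17:37480851-37483552, minus strand). These genes arose by duplication, which bears on how reads were assigned. Of all 31-base words in its transcripts, H2-T22 shared 67.4% with transcripts of other genes (47.2% with H2-T10), H2-Q4 53%, H2-Q6 51.8%, H2-Q7 39.2%, H2-Q10 30.3% and H2-T23 25.8%. The shares were lower for H2-T24 (6.61%), H2-M3 (4.62%) and H2-M2 (3.2%), and B2m shared none of its 830 words. Estimated counts of the 9 genes were not whole (more than 0.01 from a whole number) in 25 to 28 of the 28 tumors, against 0 tumors for B2m and 2 for Ptprc. Within the 9 this did not follow the shared words. Counts of H2-M2 (3.2% shared) were not whole in 28 tumors and those of H2-Q6 (51.8% shared) in 25. The part of shared sequence in these values was not tested. In addition, the reference carries the C57BL/6 alleles of these variable genes while the mice are BALB/c. The effect of that mismatch on the levels was not tested.

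Promoters are shown because interferon response elements are a known feature of class I promoters. RefSeq promoter sequences (GRCm38.p6) were matched for 8 genes, and H2-T24 had no entry. The 250 bases before the annotated start were searched on both strands for TTTCNNTT (reverse AANNGAAA), the core of an interferon-stimulated response element, and for GGGNNTTCC (reverse GGAANNCCC), a NF-kappa B type motif. Capitals mark these matches in the following promoters, printed 5′ to 3′ on the gene's strand.
H2-Q7, chr17:35438905-35439154, plus strand: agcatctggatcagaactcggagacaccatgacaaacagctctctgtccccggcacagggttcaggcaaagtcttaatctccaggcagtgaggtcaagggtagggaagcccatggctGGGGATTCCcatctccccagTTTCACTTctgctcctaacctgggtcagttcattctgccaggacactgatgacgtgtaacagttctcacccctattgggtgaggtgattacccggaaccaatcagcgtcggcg
H2-Q10, chr17:35469839-35470088, plus strand: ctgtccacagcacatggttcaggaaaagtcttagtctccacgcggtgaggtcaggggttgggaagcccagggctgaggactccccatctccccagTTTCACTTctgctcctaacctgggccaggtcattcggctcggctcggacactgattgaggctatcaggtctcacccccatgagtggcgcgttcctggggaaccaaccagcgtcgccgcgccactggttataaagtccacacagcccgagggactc
H2-T22, chr17:36042743-36042992, minus strand: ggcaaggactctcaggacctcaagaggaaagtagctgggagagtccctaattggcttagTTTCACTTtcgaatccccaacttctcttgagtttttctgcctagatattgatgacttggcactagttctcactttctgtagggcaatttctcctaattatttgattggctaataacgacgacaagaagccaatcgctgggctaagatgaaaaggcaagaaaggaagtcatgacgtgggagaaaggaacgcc
H2-M2, chr17:37483555-37483804, minus strand: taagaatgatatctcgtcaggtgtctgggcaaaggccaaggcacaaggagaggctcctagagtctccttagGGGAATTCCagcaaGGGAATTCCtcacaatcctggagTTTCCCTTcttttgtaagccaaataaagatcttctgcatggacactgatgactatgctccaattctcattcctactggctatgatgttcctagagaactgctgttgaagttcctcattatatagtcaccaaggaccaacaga
H2-M3, chr17:37269984-37270233, plus strand: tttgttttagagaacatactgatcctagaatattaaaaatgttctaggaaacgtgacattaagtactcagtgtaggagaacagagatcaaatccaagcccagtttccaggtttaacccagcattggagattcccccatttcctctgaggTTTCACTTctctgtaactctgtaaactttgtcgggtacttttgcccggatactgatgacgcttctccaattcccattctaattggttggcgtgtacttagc

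The interferon-response core was present in 8 of 8 promoters, against 21.3% of the 32851 promoters in the same table. H2-T23 held 2 copies, which begin 124 and 81 bases before the RefSeq start, inside the 154 bases by which the GENCODE gene reaches farther upstream. The other 7 held 1 copy each. In H2-Q4, H2-Q6, H2-Q7, H2-Q10, H2-T22 and H2-M3 the matched letters were the same, TTTCACTT. The NF-kappa B type motif was found in 4 of 8 (H2-Q4, H2-Q6, H2-Q7 and H2-M2, which holds 2 copies 179 and 165 bases before its start), against 4.98% of all promoters, and it did not overlap the interferon-response core. The letters TGACG (reverse CGTCA), as in cyclic AMP response elements, were found in 5 of 8 and CCAAT (reverse ATTGG), bound by NF-Y, in 7 of 8, against 17.8% and 33.8%. Related promoters are copies of each other, so these are not independent occurrences, and a match describes letters only.

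Total estimated counts per tumor ran from 23541733 to 33950805 (median 28797552), at which 3 counts correspond to 0.0822 to 0.159 CPM. The mesothelioma marker Msln was present in the PBS tumors (271 to 358 CPM) together with Pdpn, whereas the mesothelial genes Wt1 and Upk3b were near 0. All ICB (52.0 to 217 CPM), 5-FU (45.02 to 177 CPM) and 5-FU+ICB (0.5001 to 167 CPM) tumors had less Msln than all PBS tumors, and Msln was called lower in 5-FU+ICB (log2 -2.28 ± 0.77). The endothelial gene Pecam1, which leukocytes also express, was called higher in ICB, 5-FU and 5-FU+ICB (log2 1.38 ± 0.41, 1.14 ± 0.40 and 2.02 ± 0.42). Wt1, at 2.78 CPM or less in every tumor, was called higher in these groups and in Cisplatin+ICB. Leukocyte markers differed between groups. The pan-leukocyte gene Ptprc was at 92.1 ± 12.7 CPM in PBS (SD, n = 4), 365 ± 82.4 CPM in ICB (n = 5) and 402 ± 223 CPM in 5-FU+ICB (n = 5). Of 20 leukocyte markers, 11 were called higher in ICB than in PBS, 7 in 5-FU, 0 in cisplatin, 13 in 5-FU+ICB and 9 in Cisplatin+ICB. Their summed level was 718.5 to 793 CPM in PBS, 1497 to 3937 in ICB, 877 to 2780 in 5-FU, 600.2 to 1293 in cisplatin, 737 to 3369 in 5-FU+ICB and 957 to 1963 in Cisplatin+ICB, and none of the 20 was at 0 in every tumor of a group. A gene was called when the edgeR adjusted p was under 0.05 and the log2 fold change was beyond 0.5. The part of leukocyte content and of these other markers in the differences below was not tested.

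Several tumors stood apart from their group. 5-FU+ICB replicate 2 had 105 CPM of Ptprc, within the PBS range, and was the lowest of its group for 9 of 9 genes. 5-FU+ICB replicate 5 had 0.5001 CPM of Msln, 722.5 CPM of Ptprc and 288 CPM of the B cell gene Cd79a, and was the highest of its group for 7 of 9. Cisplatin+ICB replicate 1 had 654.5 CPM of Msln and only 1.80 CPM of the T cell gene Cd3e. In that tumor 5 of the 9 genes were the lowest of the group in CPM and 2, H2-M3 and H2-T22, were the highest. Its TMM scaling factor was 0.685, against 1.08 to 1.14 in the other Cisplatin+ICB tumors, and a lower factor raises CPM. Before scaling, its H2-T22 estimated count (5863) was below those of replicates 2, 4 and 5 (7129, 8678.5 and 8140). 5-FU replicate 3 had 331 CPM of Ptprc against 97.7 to 268 CPM in the other 5-FU tumors, and was the highest of its group for 8 of 9 genes, H2-Q10 being the exception.

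**Figure D1:**
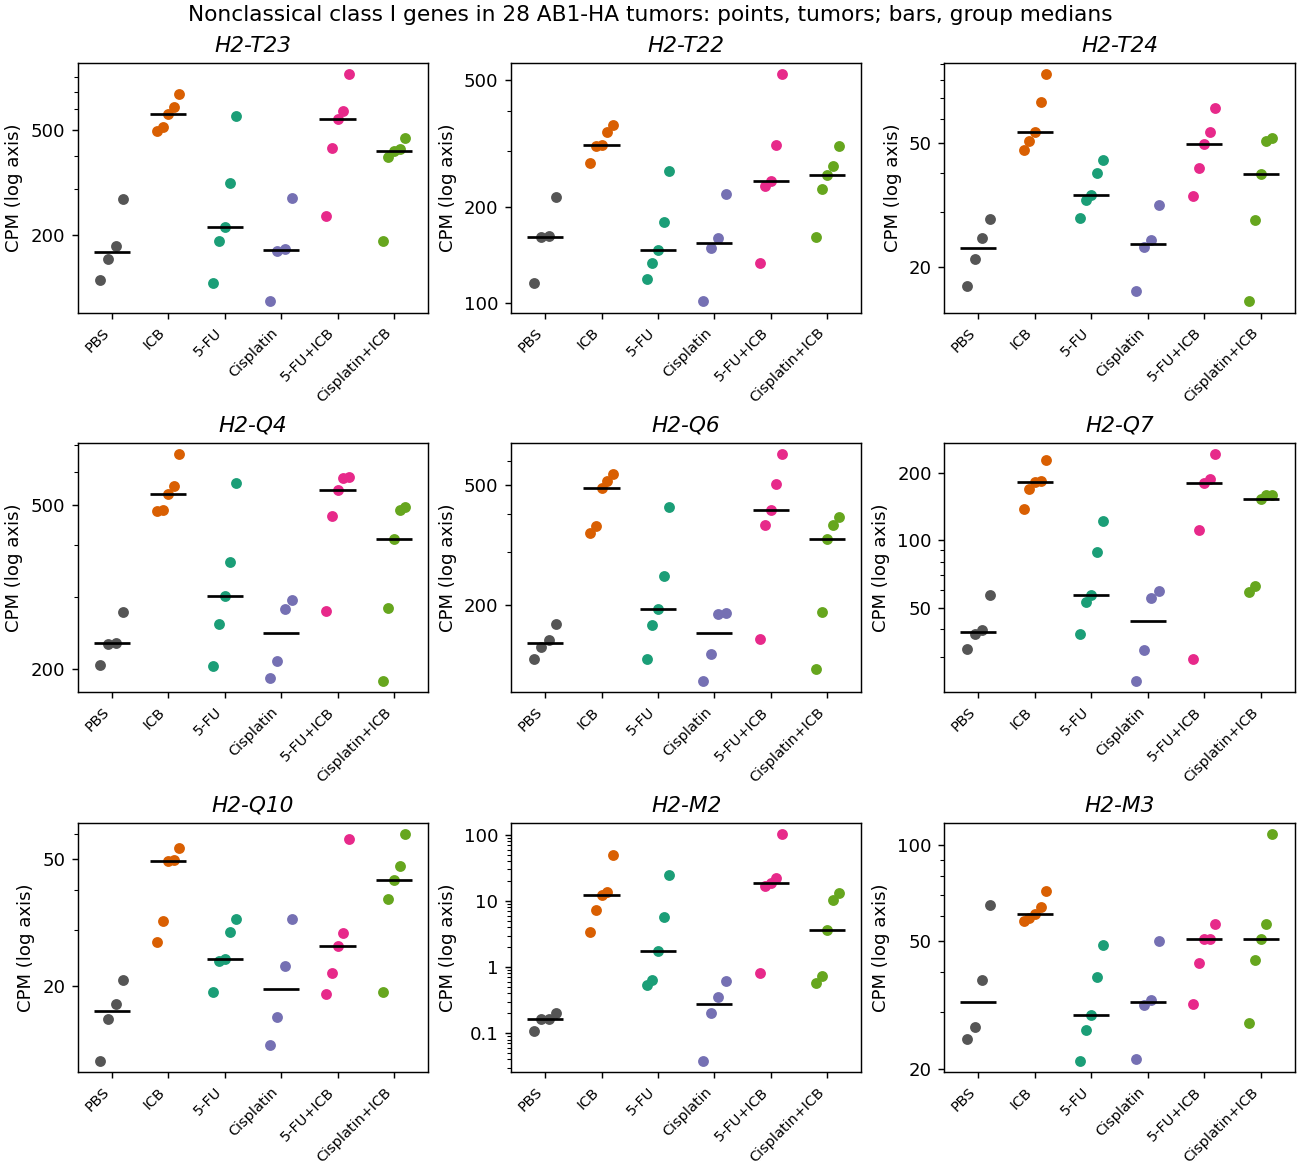
Level of each gene in CPM (log axis) in the 28 tumors by treatment group, 1 point per tumor, with bars at group medians. For every gene except H2-M3 all ICB tumors lie above all PBS tumors, and H2-M2 spans from 0.0381 to 104 CPM.

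Among the T genes, H2-T23 (Qa-1) was at 182, 274, 135 and 163 CPM in PBS replicates 1 to 4 and at 515, 685, 614, 498 and 577 CPM in ICB replicates 1 to 5. No ICB tumor overlapped the PBS range, and the log2 fold change was 1.62 ± 0.40 (SE). In 5-FU the values were 190.4, 215, 569, 132 and 317 CPM, so that replicate 3 alone reached the ICB range, and in cisplatin they were 178, 174, 112 and 278 CPM, overlapping PBS. 5-FU+ICB gave 591, 236, 554, 429 and 815 CPM, spanning both control and ICB levels, with a log2 fold change of 1.49 ± 0.40 against PBS. Cisplatin+ICB gave 416, 395, 191, 467 and 424 CPM, where every tumor was below every ICB tumor. The difference of Cisplatin+ICB from ICB was -0.61 ± 0.26 on the log2 scale and was not called, and 1.28% of all genes tested lay entirely below ICB in this way.

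H2-T22, the gamma delta T cell ligand, ranged from 116 to 216 CPM in PBS and from 274 to 363 CPM in ICB, a log2 difference of 0.98 ± 0.32. The 5-FU tumors ranged from 118 to 260 CPM and the cisplatin tumors from 101 to 220 CPM. Both overlapped PBS, with log2 differences of 0.03 ± 0.32 and -0.05 ± 0.24. Without 5-FU replicate 3, at 260 CPM, the 5-FU difference was -0.19. In 5-FU+ICB H2-T22 ranged from 134 to 522 CPM (0.83 ± 0.32 log2) and in Cisplatin+ICB from 161 to 311 CPM (0.59 ± 0.23 log2), both overlapping PBS. When counts of H2-T22 were summed with those of its near copy H2-T10, the ICB difference was 0.98 ± 0.32. H2-T24 was lower, at 17.3 to 28.5 CPM in PBS against 47.7 to 83.4 CPM in ICB (1.44 ± 0.23 log2), and it was 1 of the 2 genes called in 5-FU, where it ranged from 28.8 to 44.2 CPM (0.66 ± 0.22 log2). Here the 5 tumors of 5-FU all lay above the 4 of PBS, and so did those of 5-FU+ICB (33.9 to 65.0 CPM, 1.12 ± 0.23 log2). In Cisplatin+ICB, H2-T24 ranged from 15.5 to 52.0 CPM (0.72 ± 0.30 log2) and overlapped PBS through replicates 1 and 3.

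Within the Q family, H2-Q7 was at 38.3, 56.7, 32.5 and 39.7 CPM in the PBS tumors and 169.8, 229, 181, 138 and 184 CPM in the ICB tumors, without overlap and with a log2 difference of 2.12 ± 0.46, which was the second largest of the 9 after H2-M2. The 5-FU tumors were at 53.0, 57.0, 122, 38.2 and 88.5 CPM and the cisplatin tumors at 59.3, 32.2, 23.5 and 54.9 CPM, both overlapping PBS. The 5-FU+ICB tumors were at 179.6, 29.6, 112, 187 and 242 CPM and the Cisplatin+ICB tumors at 62.4, 159, 58.7, 159 and 154 CPM. All Cisplatin+ICB tumors exceeded all PBS tumors, whereas 5-FU+ICB replicate 2 fell below every PBS tumor. H2-Q6, another gene of the Qa-2 family, ranged from 132 to 173 CPM in PBS and 347 to 546 CPM in ICB (1.62 ± 0.36 log2). With H2-Q6 and H2-Q7 counts summed, the ICB difference was 1.74 ± 0.37. H2-Q7 shared more of its 31-base words with H2-Q10 (22.4%) than with H2-Q6 (8.72%), and counts of H2-Q7 and H2-Q10 were not summed. H2-Q4 ranged from 205 to 275 CPM in PBS and 484 to 664 CPM in ICB (1.24 ± 0.27 log2). Under 5-FU+ICB, H2-Q4 ranged from 276 to 584 CPM, above all PBS tumors (1.09 ± 0.27 log2), and H2-Q6 from 154 to 635 CPM (1.49 ± 0.36 log2). Under Cisplatin+ICB the 2 genes ranged from 187 to 495 CPM (0.68 ± 0.25 log2) and from 123 to 392 CPM (0.91 ± 0.29 log2), with replicate 1 the lowest for both and below every PBS tumor. In 5-FU and cisplatin alone both overlapped PBS, with log2 differences of 0.54 ± 0.26 and 0.05 ± 0.26 for H2-Q4 and 0.65 ± 0.35 and 0.05 ± 0.30 for H2-Q6.

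H2-Q10, the gene known from liver, was at 15.7, 20.8, 11.6 and 17.5 CPM in PBS and 49.2, 49.6, 27.4, 54.1 and 31.8 CPM in ICB, so that the groups did not overlap (1.39 ± 0.32 log2). The hepatocyte genes Alb and Apoa1 were at or below 0.850 CPM in all 28 tumors. H2-Q10 shared 21.9% of its 31-base words with H2-Q7, 7.09% with H2-Q5 and 6.91% with H2-K1, which were also higher in ICB. The part of reads from these genes in the H2-Q10 level was not tested. 5-FU tumors were at 24.2, 29.5, 19.1, 23.9 and 32.4 CPM and cisplatin tumors at 32.3, 15.9, 13.0 and 23.01 CPM. 5-FU+ICB gave 29.3, 18.8, 26.6, 57.8 and 21.9 CPM and Cisplatin+ICB 19.0, 59.9, 37.3, 47.4 and 43.0 CPM. The log2 differences from PBS were 0.65 ± 0.32 in 5-FU, 0.94 ± 0.32 in 5-FU+ICB and 1.35 ± 0.33 in Cisplatin+ICB. The extreme tumors of the 5-FU and ICB groups were not those of the other genes. 5-FU replicate 3, the highest 5-FU tumor for the other 8 genes, was the lowest for H2-Q10, and ICB replicate 4, the lowest ICB tumor for 7 genes, was the highest for H2-Q10.

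H2-M2 showed the widest range. It was at 0.162, 0.203, 0.108 and 0.166 CPM in the PBS tumors, or 3 to 6 estimated counts, and at 7.26, 49.5, 12.4, 3.38 and 13.9 CPM in the ICB tumors. In 5-FU it was at 1.75, 0.539, 24.4, 0.642 and 5.74 CPM, above all PBS tumors, and in cisplatin at 0.625, 0.0381, 0.201 and 0.355 CPM. 5-FU+ICB gave 22.6, 0.806, 16.9, 19.0 and 104 CPM and Cisplatin+ICB 0.583, 10.299, 0.737, 13.2 and 3.59 CPM, again above all PBS tumors. Thus every tumor that received ICB or 5-FU exceeded every PBS tumor, yet the levels within each of these groups spread over more than 10-fold. Log2 differences from PBS were 6.76 ± 1.56 for ICB, 5.34 ± 1.498 for 5-FU, 7.66 ± 1.60 for 5-FU+ICB and 5.13 ± 1.10 for Cisplatin+ICB. Their size rests on the few counts in PBS, and the gene passed the filter on low counts through the treated tumors. Without the highest tumor of a group these fell, to 5.87 for ICB (without replicate 2), 3.73 for 5-FU (without replicate 3) and 6.52 for 5-FU+ICB (without replicate 5).

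H2-M3 had the smallest difference between ICB and PBS. It was at 37.8, 65.0, 24.8 and 27.0 CPM in PBS and 64.2, 72.1, 59.0, 57.9 and 61.1 CPM in ICB, where PBS replicate 2 lay inside the ICB range, and the log2 difference of 0.70 ± 0.29 was not called. Without PBS replicate 2 it was 1.11. 5-FU tumors were at 26.4, 29.4, 48.7, 21.1 and 38.8 CPM and cisplatin tumors at 32.8, 31.7, 21.4 and 50.2 CPM, with log2 differences from PBS of -0.25 ± 0.29 and -0.18 ± 0.37. 5-FU+ICB gave 50.9, 31.8, 51.0, 42.8 and 56.5 CPM, with every tumor below every ICB tumor (-0.43 ± 0.27 log2, not called), a pattern shown by 1.67% of all genes tested. Cisplatin+ICB gave 108, 51.0, 27.8, 56.5 and 43.8 CPM, and the 108 CPM of replicate 1 was the highest H2-M3 level of all 28 tumors. That level depends on the scaling factor of 0.685 of this tumor. Before scaling it had 2045 estimated counts of 27570127, against 2523 of 33950805 in ICB replicate 2.

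Across groups, ICB or 5-FU+ICB had the highest median for each of the 9 genes. Neighbouring groups in the order of medians overlapped for every gene. Compared per kilobase of exon, the median level in PBS was highest for H2-Q4 (89.0 CPM per kb), followed by H2-Q6 (71.7), H2-T23 (59.8), H2-T22 (47.3) and H2-M3 (22.5), and lowest for H2-Q10 (3.81) and H2-M2 (0.106). In ICB the order began with H2-Q6 (236), H2-Q4 (204) and H2-T23 (199.7). Relative to the classical chains, the 9 genes made up 22.9% ± 0.761 of all class I heavy chain counts (the 9 plus H2-K1 and H2-D1) in PBS, 25.5% ± 2.46 in ICB and 27.1% ± 2.26 in 5-FU+ICB (SD, n = 4, 5 and 5). PBS tumors ran from 21.8% to 23.4% and overlapped ICB (22.7% to 28.4%) and cisplatin (22.1% to 24.8%). All tumors of 5-FU (23.8% to 27.5%), 5-FU+ICB (24.2% to 29.3%) and Cisplatin+ICB (24.6% to 26.2%) lay above all PBS tumors. Since the members were chosen on these levels, the shares carry no test.

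**Figure D2:**
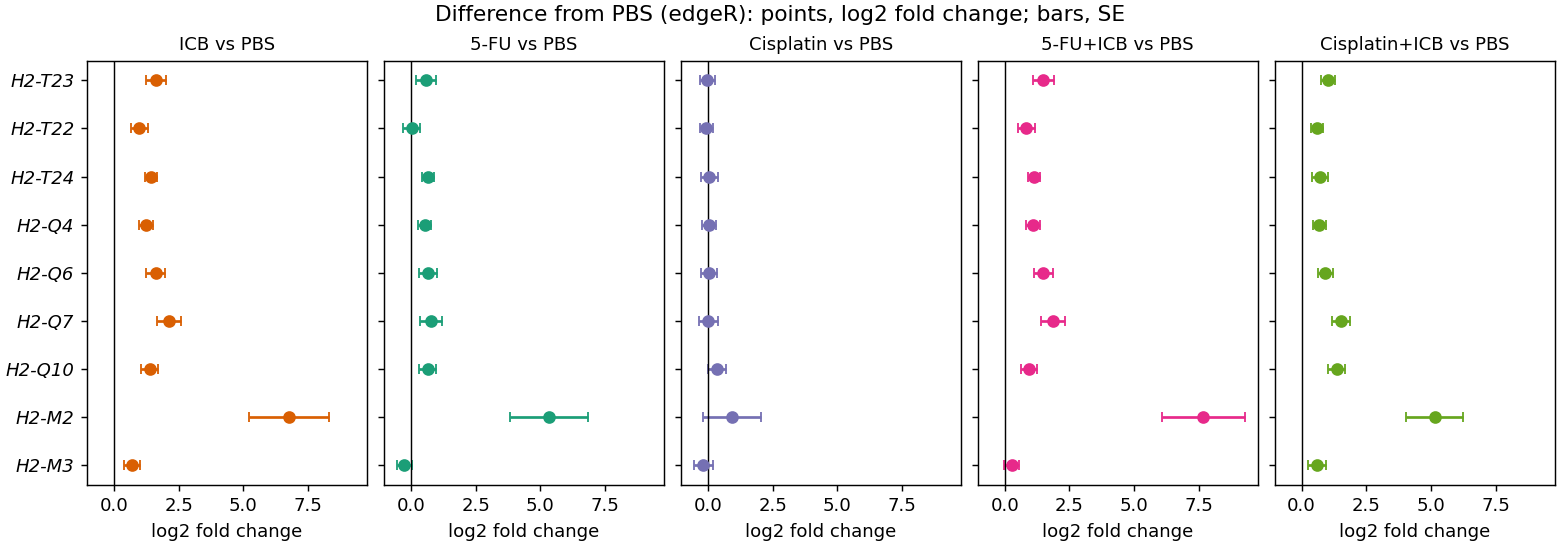
Log2 fold change of each gene against PBS from edgeR, with bars of 1 SE, for the 5 treatments. The ICB differences run from 0.70 (H2-M3) to 6.76 (H2-M2), while cisplatin differences lie between -0.18 and 0.94.

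The comparisons with PBS ask how each treatment alone or combined moved the class I set by day 7. In ICB the median log2 difference of the 9 genes was 1.44 (median of all genes tested -0.03) and 8 of 9 were called higher, against 19% of all genes tested. H2-M3 was the exception in the main edgeR fit, which called 6771 genes in either direction. DESeq2, which called 7358 genes, called 9 of 9. So did edgeR with DESeq2 size factors (6618 genes), with no filter (5734 genes) and without PBS replicate 2 (5176 genes). For 8 of 9 every ICB tumor exceeded every PBS tumor, against 15.8% of all genes. In 5-FU the median was 0.65, 2 of 9 were called higher (H2-M2 and H2-T24, against 9.98% of all genes) and the same 2 did not overlap PBS (against 9.27%). Cisplatin gave a median of 0.05 with 0 of 9 called higher, where edgeR called 0% of all genes, 317 genes had an unadjusted p under 0.05 and DESeq2 called 3 genes and 0 of the 9. None of the 9 was free of overlap with PBS in cisplatin, against 1.53% of all genes. In 5-FU+ICB the median was 1.12 and 8 of 9 were called higher (against 21.9%), but only H2-M2, H2-Q4 and H2-T24 did not overlap PBS (against 10.9%). In Cisplatin+ICB the median was 0.91, 4 of 9 were called higher (H2-M2, H2-Q7, H2-Q10 and H2-T23, against 4.7%) and 2 did not overlap (H2-M2 and H2-Q7, against 3.43%). The 5 comparisons share the 4 PBS tumors, and the choice of the genes on these levels means that nothing further is read from the counts.

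Single tumors decided several of these counts. In 5-FU against PBS 0 genes were called without PBS replicate 1, without PBS replicate 2 or without 5-FU replicate 3, and 1 without PBS replicate 3 or 5-FU replicate 5. In Cisplatin+ICB against PBS 7 were called without Cisplatin+ICB replicate 1, 0 without PBS replicate 1, 3 or 4, and 1 without Cisplatin+ICB replicate 2, 4 or 5. The count over all genes went from 1087 for Cisplatin+ICB to 6277 without Cisplatin+ICB replicate 1, to 249, 266 and 361 without replicates 2, 4 and 5, and to 0 without PBS replicate 1, 3 or 4. For 5-FU it went from 4115 to 1919, 1436, 2947 and 2512 without PBS replicate 1, PBS replicate 2, 5-FU replicate 3 and 5-FU replicate 5, but to 4741 without PBS replicate 3. The ICB count of members stayed between 7 and 9 and the 5-FU+ICB count between 6 and 8, with 8 without 5-FU+ICB replicate 2 and 7 without 5-FU+ICB replicate 5.

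The combinations were next compared with their single treatments. Against ICB, 5-FU+ICB had a median log2 difference of -0.15 over the 9 genes, from -0.45 (H2-Q10) to 0.91 (H2-M2), and 0 were called higher by edgeR, against 0.067% of all genes (1947 genes had an unadjusted p under 0.05, and DESeq2 called 320 genes and 0 of the 9). Without 5-FU+ICB replicate 5, H2-M2 turned to -0.24, whereas without ICB replicate 2 it was 1.84. Without 5-FU+ICB replicate 2, H2-Q4, H2-Q6, H2-Q7, H2-T22 and H2-T23 turned to between 0.01 and 0.09. Cisplatin+ICB lay below ICB for 9 of 9 genes, with a median of -0.61, from -1.60 (H2-M2) to -0.03 (H2-Q10), and 0 were called, as for 0% of all genes (2839 at an unadjusted p under 0.05, and DESeq2 called 56 genes and 0 of the 9). Ptprc differed by -0.59 ± 0.30 in the same comparison. H2-M2 was at -0.69 without ICB replicate 2 and at -2.18 without Cisplatin+ICB replicate 4. H2-Q10 lay close to ICB and changed sign in several settings, up to 0.18 without Cisplatin+ICB replicate 1, and H2-M3 turned to 0.05 without Cisplatin+ICB replicate 3. Adding ICB to 5-FU gave higher fitted values for 9 of 9 genes (median 0.80), from 0.28 for H2-Q10 to 2.33 for H2-M2, while edgeR called 0 of them and 0.0112% of all genes higher (2983 at an unadjusted p under 0.05, and DESeq2 called 497 genes and 0 of the 9). Without 5-FU+ICB replicate 2 the count was 5, and without 5-FU replicate 3 it was 3, while the count over all genes went from 2 to 1948 and 640. H2-Q10 turned to -0.10 without 5-FU+ICB replicate 4, and H2-M2 ran from 1.18 without 5-FU+ICB replicate 5 to 3.93 without 5-FU replicate 3. Adding ICB to cisplatin also gave higher fitted values for 9 of 9 (median 0.86), from 0.62 for H2-Q4 to 4.19 for H2-M2, with 0 called by edgeR and 0% of all genes (2530 at an unadjusted p under 0.05), whereas DESeq2 called 766 genes and 3 of the 9. Here edgeR called 7 members and 2114 genes without Cisplatin+ICB replicate 1, and 3 members and 536 genes without Cisplatin+ICB replicate 3.

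Correlation with the leukocyte gene Ptprc was lowest for H2-Q10 and H2-M3. Over the 28 tumors, which share library preparation and a common scale, the Pearson r between log2 CPM of a gene and Ptprc was 0.97 for H2-Q6, 0.96 for H2-M2 and H2-Q7, 0.95 for H2-Q4, 0.92 for H2-T23, 0.89 for H2-T24 and 0.85 for H2-T22, but 0.63 for H2-Q10 and 0.59 for H2-M3. After group means were subtracted it was 0.95 for H2-Q6, 0.36 for H2-Q10 and 0.42 for H2-M3. Leaving out Cisplatin+ICB replicate 1, a choice made after seeing the data, gave 0.72 for H2-M3 and 0.25 for H2-Q10. In ICB against PBS, H2-M2 and H2-Q7 exceeded the Ptprc log2 difference of 2.00 and the other 7 genes were below it, while 7 of 9 exceeded the 1.07 of B2m.

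**Figure D3:**
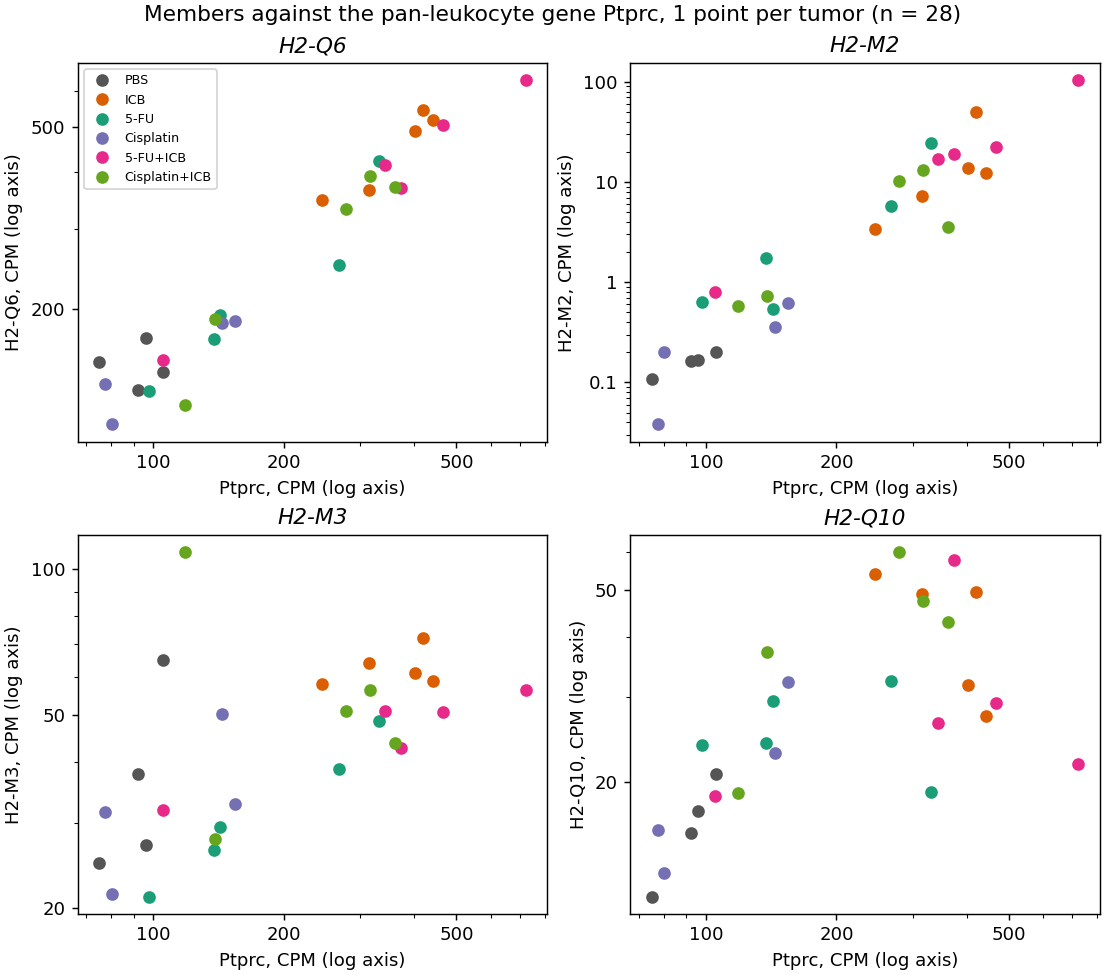
Levels of H2-Q6, H2-M2, H2-M3 and H2-Q10 against Ptprc in CPM (log axes), 1 point per tumor, colored by group. H2-Q6 and H2-M2 follow Ptprc closely (r = 0.97 and 0.96), the H2-M3 point at 108 CPM is Cisplatin+ICB replicate 1, and H2-Q10 spreads widely among leukocyte-rich tumors.

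Pairs of members also varied together within groups. With group means subtracted, r was highest for H2-Q4 with H2-Q6 (0.97) and for H2-T22 with H2-T23 (0.92), pairs of which H2-Q4 and H2-Q6 share many words of sequence. H2-M3 went with H2-T23 (0.83) and H2-T22 (0.79) rather than with H2-Q4 (0.25), H2-Q6 (0.29) or H2-T24 (0.09). That separation rested on Cisplatin+ICB replicate 1, without which H2-M3 had r of 0.69 with H2-Q4, 0.67 with H2-Q6 and 0.63 with H2-T24. H2-Q10 stayed apart, with r from 0.01 to 0.50 over its 8 pairs and from 0.14 to 0.45 without that tumor. These are descriptions across tumors and carry no test.

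**Figure D4:**
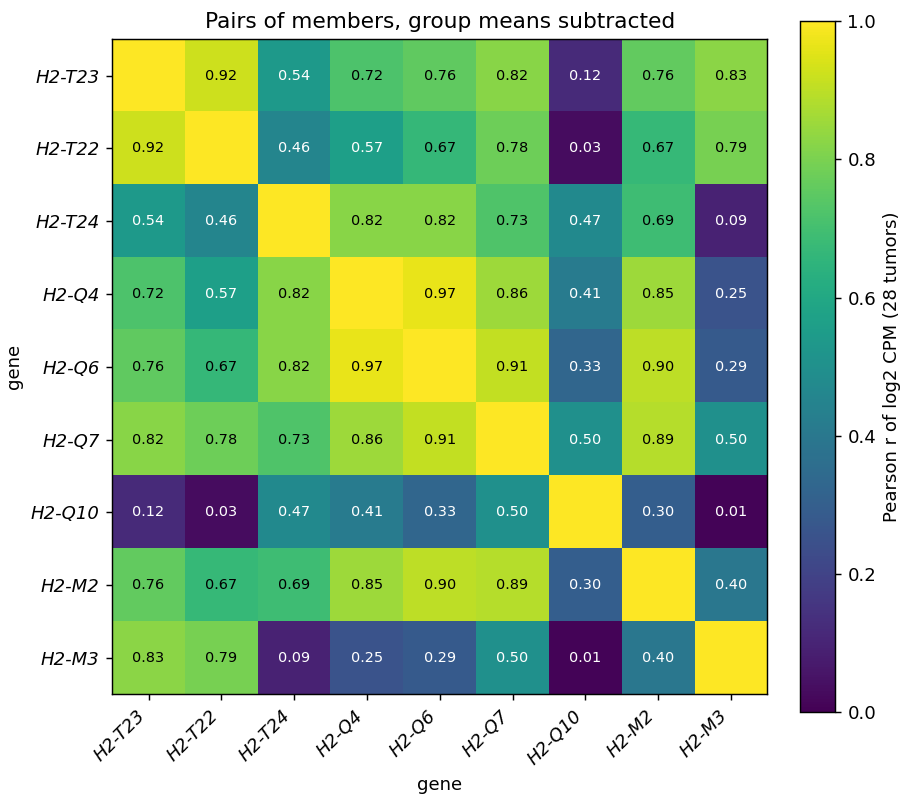
Pearson r of log2 CPM between members over 28 tumors after group means were subtracted. H2-Q4 with H2-Q6 (0.97) and H2-T22 with H2-T23 (0.92) are highest, and H2-Q10 runs from 0.01 to 0.50 with the others.

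Genes outside the set with the most similar profiles over the 28 tumors (Pearson r of log2 CPM, group differences included) were as follows. H2-T23 was closest to the immunoproteasome subunit genes Psmb9 (0.99) and Psmb8 (0.98) and to Cd40 (0.97). H2-T22 was closest to H2-T10 (0.98), Psmb9 (0.95) and Cyba (0.95), and H2-T24 to Sp110, Espn and Basp1 (0.93 to 0.94). Q genes were among the closest matches of H2-Q4, H2-Q6 and H2-Q7. H2-Q4 matched Basp1, H2-Bl and H2-Q2 (all 0.98), H2-Q6 matched Gpsm3 (0.99), H2-Q2 (0.99) and Arhgap25 (0.98), and H2-Q7 matched H2-Q5 (0.98), Unc13d (0.97) and Irf8 (0.97). H2-M2 was closest to Itgax, which encodes CD11c, to Cfb and to Dram1 (all 0.97, with Cd22 in place of Itgax at a prior count of 0.5), and H2-M3 to Lat2, Pycard and Idnk (0.94 to 0.95). H2-Q10 had the weakest matches, 2010016I18Rik, Tnni3 and Mfsd7a (0.90 to 0.92). With group means subtracted, Psmb9 again led for H2-T23 (0.97), H2-T10 for H2-T22 (0.96), H2-Q5 for H2-Q7 (0.97), Gpsm3 for H2-Q6 (0.98) and 2010016I18Rik for H2-Q10 (0.86). The lead changed to H2-Q2 for H2-Q4 (0.97), Idnk for H2-M3 (0.96) and Zbtb32 for H2-T24 (0.89). For H2-M2 all 3 matches were replaced, by Mab21l3, Cdyl and Prr5l (0.95 to 0.96).

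For the other genes of the class I pathway an adjusted p is given, from the same edgeR fit. These lists were also chosen with earlier results of these data known. Their counts and adjusted p therefore describe these tumors and are not an independent test. In ICB against PBS all 3 of the classical chains and light chain rose, namely H2-K1 (766 ± 60.3 to 1785 ± 268 CPM, log2 1.24 ± 0.33, edgeR adjusted p = 0.00673), H2-D1 (log2 1.22 ± 0.37, adjusted p = 0.0152) and B2m (log2 1.07 ± 0.33, adjusted p = 0.0168). In 5-FU+ICB 2 of 3 rose, while H2-D1 differed by 0.90 ± 0.37 with an edgeR adjusted p of 0.0552 and was called by DESeq2, with DESeq2 size factors, with a minimum of 10 counts, with all 6 groups in the model and without 5-FU+ICB replicate 2. The B2m call in 5-FU+ICB (edgeR adjusted p = 0.0238) was lost without PBS replicate 3 or 4 or without 5-FU+ICB replicate 1 or 5. Of 8 peptide loading genes, 5 rose in ICB and 5 in 5-FU+ICB. Of all genes tested, 19% were called higher in ICB and 21.9% in 5-FU+ICB. The largest ICB changes were those of tapasin, Tapbp (log2 1.85 ± 0.25, edgeR adjusted p = 0.000151), and of the peptide transporter genes Tap1 (1.80 ± 0.22, adjusted p = 5.5e-05) and Tap2 (1.64 ± 0.21, adjusted p = 7.88e-05), followed by Tapbpl (1.38 ± 0.24, adjusted p = 0.000624). In 5-FU+ICB the peptide trimming gene Erap1 was also among the 4 largest (1.33 ± 0.18, adjusted p = 0.000123). The general chaperone genes Calr, Canx and Pdia3 were not called, with log2 differences of 0.38, -0.07 and 0.22 in ICB.

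Of 8 regulators, 5 rose in ICB and 5 in 5-FU+ICB, against 19% and 21.9% of all genes tested. Among them, the ICB changes were 2.09 ± 0.28 for the class I transactivator Nlrc5 (edgeR adjusted p = 0.000144), 1.94 ± 0.24 for Irf1 (adjusted p = 7.15e-05) and 1.32 ± 0.19 for Stat2 (adjusted p = 0.000187). 5-FU alone raised 5 of 8 peptide loading genes and 3 of 8 regulators, among them Tapbp (1.10 ± 0.25, edgeR adjusted p = 0.00747) and Nlrc5 (1.12 ± 0.27, adjusted p = 0.0102), and 0 of 3 classical and light chain genes. Of all genes tested, 9.98% were called higher in 5-FU. With all 6 groups in the model 0 of the 8 peptide loading genes and 1 regulator were called in 5-FU. In Cisplatin+ICB 2 of 8 peptide loading genes and 3 of 8 regulators rose, against 4.7% of all genes tested. No gene of the genome was called in that comparison without PBS replicate 1, 3 or 4 or with only the groups compared, so all its calls in these lists were lost there. In cisplatin alone edgeR called none of the listed genes, and 0% of all genes tested were called higher.

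Among 8 receptor genes of cells that read nonclassical molecules, 6 rose in ICB and 6 in 5-FU+ICB, against 19% and 21.9% of all genes tested. Leaving out single tumors gave 4 to 6 in both. The calls of Tcrg-C4 in both comparisons and of Trdc in 5-FU+ICB were lost in several settings, with edgeR adjusted p of up to 0.112, 0.0641 and 0.103. The genes of the CD94/NKG2 receptors, which bind Qa-1, were among the genes that rose in both comparisons. In ICB the NK cell markers Ncr1 and Klrb1c were not called (log2 0.56 ± 0.40 and 1.03 ± 0.51, edgeR adjusted p = 0.269 and 0.115), while the T cell marker Cd8a rose by 4.42 ± 0.84 (adjusted p = 0.00101). Klrb1c rose in 5-FU+ICB (log2 1.37 ± 0.52, edgeR adjusted p = 0.0395) and in 5-FU (1.51 ± 0.52, adjusted p = 0.0418), where Ncr1 was not called. Klrc1, which encodes NKG2A, went from 5.09 ± 1.82 to 44.0 ± 18.6 CPM in ICB (log2 3.11 ± 0.69, edgeR adjusted p = 0.00235), Klrc2 changed by 3.15 ± 0.68 (adjusted p = 0.00199) and Klrd1, which encodes CD94, by 2.36 ± 0.58 (adjusted p = 0.00442). In 5-FU+ICB these 3 changed by 3.20 ± 0.69, 3.22 ± 0.68 and 2.58 ± 0.59 (edgeR adjusted p = 0.00217, 0.00195 and 0.00283), and in Cisplatin+ICB by 2.13 ± 0.55, 2.29 ± 0.60 and 1.88 ± 0.47 (adjusted p = 0.033, 0.0334 and 0.0306). These 3 Cisplatin+ICB calls were lost without PBS replicate 1, 3 or 4, without Cisplatin+ICB replicate 2, 4 or 5, with only the groups compared and with all 6 groups in the model. The T cell receptor gamma constant gene Tcrg-C2 changed by 2.25 ± 0.73 in ICB (edgeR adjusted p = 0.0206), a call lost without PBS replicate 1 or 3. Tcrg-C1 was not called in ICB. The delta constant gene Trdc was at 4.21 ± 1.40 CPM in PBS and 6.61 ± 2.02 CPM in ICB and was not called there. Klrc1 and Klrc2 are close copies, and the division of reads between them is uncertain. In 5-FU alone 0 of 8 receptor genes were called, against 9.98% of all genes tested called higher. These genes are expressed by leukocytes, whose markers moved in the same comparisons.

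Of 28 further nonclassical or class I-like genes listed, 25 were rows of the matrices and 14 were tested in the 5-FU matrix. Of these, 8 rose in ICB, 8 in 5-FU+ICB and 1 in 5-FU, against 19%, 21.9% and 9.98% of all genes tested. The 1 in 5-FU is near the share of all genes, and nothing is read from it. In the cisplatin matrix 3 of 15 rose in Cisplatin+ICB (against 4.7% of all genes tested), all lost without PBS replicate 1, 3 or 4. The H2-T10 call was lost without PBS replicate 3 in ICB, and without PBS replicate 3 or 4 or 5-FU+ICB replicate 5 in 5-FU+ICB. H2-M1, H2-M10.1 to H2-M10.6, H2-M11, Azgp1 and Mill1 did not pass the filter on low counts in either matrix, and H2-M5 passed it in the cisplatin matrix alone. The lipid-presenting genes Cd1d1 (1.30 ± 0.511 to 11.0 ± 3.72 CPM, log2 3.08 ± 0.56, edgeR adjusted p = 0.000807) and Cd1d2 (3.06 ± 0.58, adjusted p = 0.00098) changed most in ICB, and these 2 are also copies that can share reads. H2-Q5 changed by 1.84 ± 0.35 (edgeR adjusted p = 0.0011), and it shares 43.2% of its 31-base words with H2-Q7. H2-M9 changed by 2.28 ± 0.85 (edgeR adjusted p = 0.0396) from levels of 0 to 0.136 CPM in PBS, where 2 of 4 tumors had 3 counts or fewer, and its ICB call was lost without PBS replicate 1 or 3 or without ICB replicate 2, 3 or 5, and with no filter on low counts. None of the genes in these lists was called lower in ICB or 5-FU+ICB against PBS. In 5-FU+ICB or Cisplatin+ICB against ICB, edgeR called 0 genes of the 5 lists, and 41 and 0 genes over all genes tested.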

How the data were processed

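RNA was sequenced from 28 whole tumors as single-end reads of 100 bases. The authors made estimated counts per gene with kallisto 0.46.0 and Tximport on GRCm38 and deposited them in 2 matrices, 1 per chemotherapy, which share the 9 PBS and ICB tumors. The annotation release is not given in the sources used here. In these deposited expected counts 23.7% of values were not whole, and they were rounded. Division of reads among similar transcripts by kallisto can give such values. A spreadsheet had turned 26 gene names into dates, none of them described here.

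The members and all gene lists were chosen with earlier results of these data known. Each matrix (4 groups) was fitted with edgeR 4.0.16 (R 4.3.3): filterByExpr, TMM scaling, quasi-likelihood test and Benjamini-Hochberg adjustment over 17916 or 17819 genes. ICB against PBS comes from the 5-FU matrix. Levels are CPM on 1 TMM scale over 28 tumors, and correlations use log2 CPM with a prior count of 2. SE is the log2 fold change divided by the square root of F. Named genes are the 9 members, the 4 largest changes among called genes of each pathway list with the H2-T23 and H2-T22 receptors, and the 3 genes most like each member. The values of 1 regulator in this rule are not reported here. Sequence words and positions come from GENCODE M21 and promoters from RefSeq, read with Python 3.11.15.

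Alternatives were DESeq2 1.42.0, its size factors, other count filters, other sets of groups, summed paralogs, a replicate block and leaving out each tumor. The fit was tested on simulated data. Each tumor is a different mouse, and the depth of 23541733 to 33950805 counts limits only the lowest levels.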

Additional observations from a re-analysis of the deposited data

Results flagged for a closer look

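Of 54 sets of values (9 genes in 6 groups), 1 held a tumor far from the rest of its group. H2-T23 in Cisplatin+ICB replicate 3 was at 190.9 CPM, the lowest of 5, and its gap to the next tumor was 0.814 of the range of the group on the log2 CPM scale. The other 4 Cisplatin+ICB tumors lay between 395 and 467 CPM. The 9 genes vary together in the same tumors and were chosen on these levels. The 54 sets are therefore not independent, and no chance rate is applied to them. The gap also depends on scaling. Before scaling, the H2-T23 estimated counts of Cisplatin+ICB replicates 1, 2 and 3 were 7850, 12403 and 6480. In Cisplatin+ICB replicate 3 Ptprc was at 138 CPM, and the part of leukocyte content in its H2-T23 value was not tested.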

How the results depend on the processing

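Counts of the 9 genes called against PBS moved with the model mainly for 5-FU and Cisplatin+ICB. For 5-FU the 2 calls became 1 with a minimum of 10 counts in every tumor, 1 with all 6 groups in the model and 0 with the replicate block, and 3 with only the groups compared. For Cisplatin+ICB the 4 calls became 0 with the replicate block, 0 with only the 2 groups compared and 2 with all 6 groups in the model, and 6 by DESeq2. Cisplatin+ICB against cisplatin had 0 calls by edgeR and 3 by DESeq2. The causes were not tested. Leaving out single tumors gave 7 to 9 calls for ICB, 0 to 2 for 5-FU, 0 to 0 for cisplatin, 6 to 8 for 5-FU+ICB and 0 to 7 for Cisplatin+ICB against PBS, 0 to 5 for 5-FU+ICB against 5-FU, 0 to 7 for Cisplatin+ICB against cisplatin, and 0 to 0 for both combinations against ICB. No called value changed sign. Replicate numbers did not pair the tumors (correlations of same-numbered tumors from -0.787 to 0.749), and with the block 7 of 9 were called for ICB and 7 for 5-FU+ICB, and among the pathway genes H2-M9 and Tcrg-C4 in ICB, B2m, Trdc, Tcrg-C4 and H2-T10 in 5-FU+ICB and all named Cisplatin+ICB receptor calls were lost. Over all genes, calls in 5-FU against PBS went from 4115 to 2469 without a filter and 825 with all 6 groups. For Cisplatin+ICB against PBS 1087 became 624 without a filter, 95 with the block, 2156 by DESeq2 and 0 with only the groups compared. For 5-FU+ICB against ICB 41 became 17, 8, 320 and 0 in the same order, and 23 with a minimum of 10 counts, and leaving out single tumors gave from 1 (without ICB replicate 4) to 83 (without 5-FU+ICB replicate 4). For Cisplatin+ICB against cisplatin 0 became 27 with all 6 groups. The H2-Q7 difference in ICB, summed with H2-Q6, was 1.74. Depth limits H2-M2 in PBS, at 3 to 6 counts per tumor.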
